A study of Bos grunniens with 6 samples.

Results

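The genes described here are 4 genes tied to the blood-testis barrier, *NOS2* (ENSBGRG00000013000), *VCAM1* (ENSBGRG00000008431), *EPS8* (ENSBGRG00000001929) and *IQGAP1* (ENSBGRG00000009693). They were taken by identifier or by symbol, and are 4 of the 20953 genes in the expression table, with 13 of the 16318 m6A peaks. The study sampled testis of domestic yak (*Bos grunniens*) before and after sexual maturity, from 3 juvenile yaks of 6 months (Y6M) and 3 mature yaks of 30 months (Y30M), and no treatment or genetic change was named for either group. Each testis gave an input library, from which expression was measured as FPKM (fragments scaled by transcript length and by the mapped fragments of the library), and a library of fragments pulled down with an antibody against N6-methyladenosine (m6A).

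The blood-testis barrier is formed by neighbouring Sertoli cells, which join near the base of the seminiferous tubule through tight junctions, actin-based ectoplasmic specializations, gap junctions and desmosomes. It is built around puberty and is opened and resealed as germ cells move inward. *NOS2* encodes the inducible nitric oxide synthase, *VCAM1* an adhesion molecule of the immunoglobulin superfamily that binds integrins on leukocytes, *EPS8* a regulator of actin bundling and capping, and *IQGAP1* a scaffold that links Cdc42 and Rac1 to actin, microtubules and cadherin contacts.

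Expression of *NOS2*, *VCAM1* and *EPS8* was lower in the Y30M testis than in the Y6M testis, and the libraries of the 2 ages did not overlap for any of these 3 genes. *NOS2* fell 11.3-fold by the ratio of mean FPKM, *VCAM1* 6.84-fold and *EPS8* 2.37-fold, while *IQGAP1* was not called and its libraries overlapped. A gene was called at the thresholds of the study, p no higher than 0.05 before adjustment with a change of 1.5-fold or more. Called lower were 3 of the 4 genes, and 19.0% of all 19477 genes tested were called lower. Lower without overlap were the same 3, against 21.9% of all genes tested. *NOS2*, *VCAM1* and *EPS8* were listed by the study for changing with age in these samples, so the p-values below are no independent evidence of their direction. FPKM is relative to the library, and in bulk tissue a smaller share of cells of a type and less RNA per cell cannot be told apart.

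*NOS2* was measured at 2.81, 3.48 and 2.46 FPKM in Y6M replicates 1, 2 and 3 and at 0.292, 0.336 and 0.145 FPKM in Y30M replicates 1, 2 and 3. Every Y6M library lay far above every Y30M library, and the lowest value of both ages was in replicate 3. Mean ± SD was 2.92 ± 0.520 FPKM at 6 months and 0.258 ± 0.0999 FPKM at 30 months (n = 3 for either age). In limma the log2 fold change, taken on log2(FPKM + 1) here and below, was -1.63 ± 0.18 (standard error) with a Benjamini-Hochberg adjusted p of 3.64e-04. The pseudocount of 1 is larger than the Y30M level, and with a pseudocount of 0.1 the log2 fold change was -3.10. Among genes tested, mean expression of *NOS2* stood above 46.5% of genes in Y6M and above 19.7% in Y30M.

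*VCAM1* was measured at 4.81, 5.05 and 12.8 FPKM in the Y6M libraries and at 0.713, 0.370 and 2.24 FPKM in the Y30M libraries. Replicate 3 was the highest library of both ages, 2.60 times the mean of replicates 1 and 2 in Y6M and 4.13 times in Y30M. Mean ± SD was 7.57 ± 4.57 FPKM at 6 months and 1.11 ± 0.994 FPKM at 30 months (n = 3 for either age), and the log2 fold change in limma was -2.00 ± 0.48 with an adjusted p of 0.0125. The SD was 60.3% of the mean in Y6M and 89.8% in Y30M, the widest relative spread of the 4 genes at both ages. The ratio of mean FPKM was 4.46 without Y6M replicate 3 and 13.97 without Y30M replicate 3. Without both libraries of replicate 3 *VCAM1* was still called lower, with a log2 fold change of -1.95.

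*EPS8* was measured at 8.32, 7.05 and 11.3 FPKM in the Y6M libraries and at 4.48, 2.30 and 4.48 FPKM in the Y30M libraries. The ages did not overlap, but the lowest juvenile and the highest mature library were closer in relative terms than for *NOS2*. Mean ± SD was 8.90 ± 2.19 FPKM at 6 months and 3.75 ± 1.26 FPKM at 30 months (n = 3 for either age), and limma gave -1.07 ± 0.34 for the log2 fold change with an adjusted p of 0.0359. The call was lost without Y6M replicate 3 (log2 fold change -0.90, unadjusted p = 0.0526 in limma) and without both libraries of replicate 3 (-1.03, unadjusted p = 0.0532 in limma).

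*IQGAP1* was measured at 14.4, 16.8 and 30.3 FPKM in the Y6M libraries and at 18.1, 14.2 and 14.96 FPKM in the Y30M libraries. Only Y6M replicate 3 stood above the mature libraries, and the other two juvenile libraries lay within their range. Mean ± SD was 20.5 ± 8.57 FPKM at 6 months and 15.8 ± 2.05 FPKM at 30 months (n = 3 for either age), and limma put the log2 fold change at -0.30 ± 0.31 with an adjusted p of 0.476. Without Y6M replicate 3 the log2 fold change was 0.0084. A 2-sided exact permutation test of the difference in mean FPKM gave p = 0.6 for *IQGAP1* and p = 0.1 for each of *NOS2*, *VCAM1* and *EPS8*, the smallest value that 3 against 3 libraries allow.

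**Figure D1:**
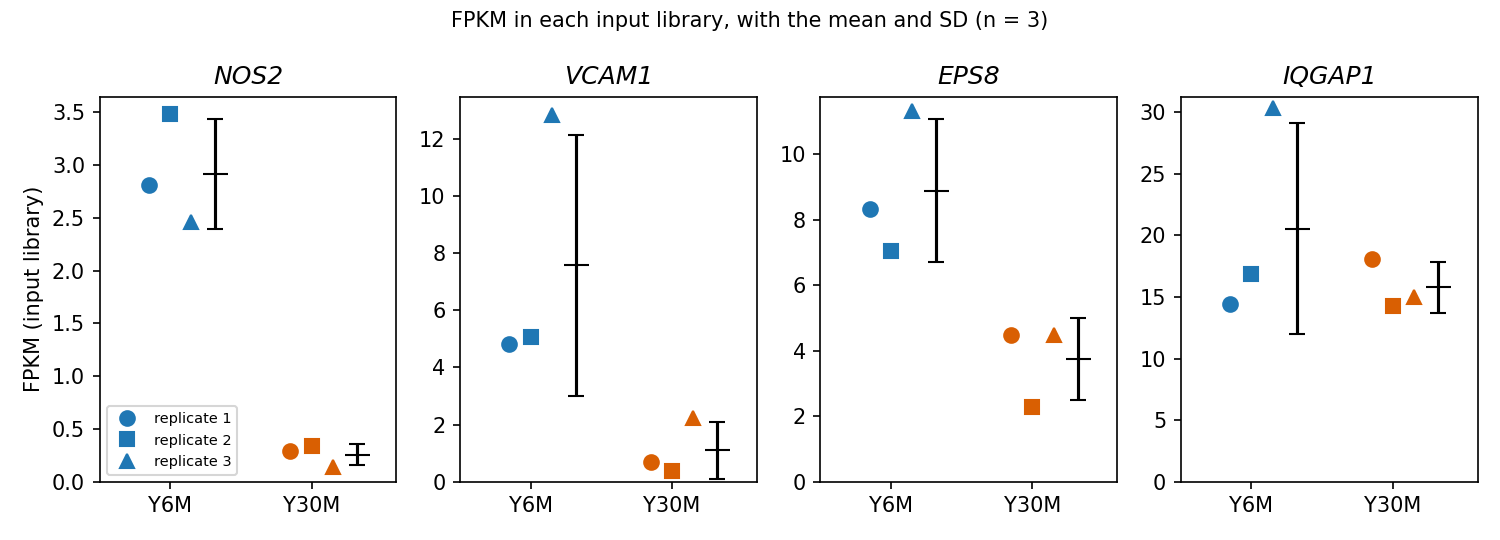
FPKM of *NOS2*, *VCAM1*, *EPS8* and *IQGAP1* (vertical axis, linear, a scale for each gene) in the 3 Y6M libraries (blue) and the 3 Y30M libraries (orange), with a symbol for each replicate number and the mean and SD of each age in black. The ages are apart for the first 3 genes, and replicate 3 (triangles) is the highest library of both ages for *VCAM1* and the highest Y6M library for *EPS8* and *IQGAP1*.

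FPKM is scaled by transcript length, so levels can be set side by side between genes. In Y6M the mean FPKM ran from *IQGAP1* through *EPS8* and *VCAM1* to *NOS2*, and *EPS8* and *VCAM1* did not differ beyond their spread. The order was the same in Y30M, where the highest *VCAM1* library (2.24 FPKM) lay just under the lowest *EPS8* library (2.30 FPKM). Mean *IQGAP1* expression stood above 79.6% of genes tested in Y6M and above 68.9% in Y30M, and that of *NOS2* was the lowest of the 4 at both ages.

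**Figure D2:**
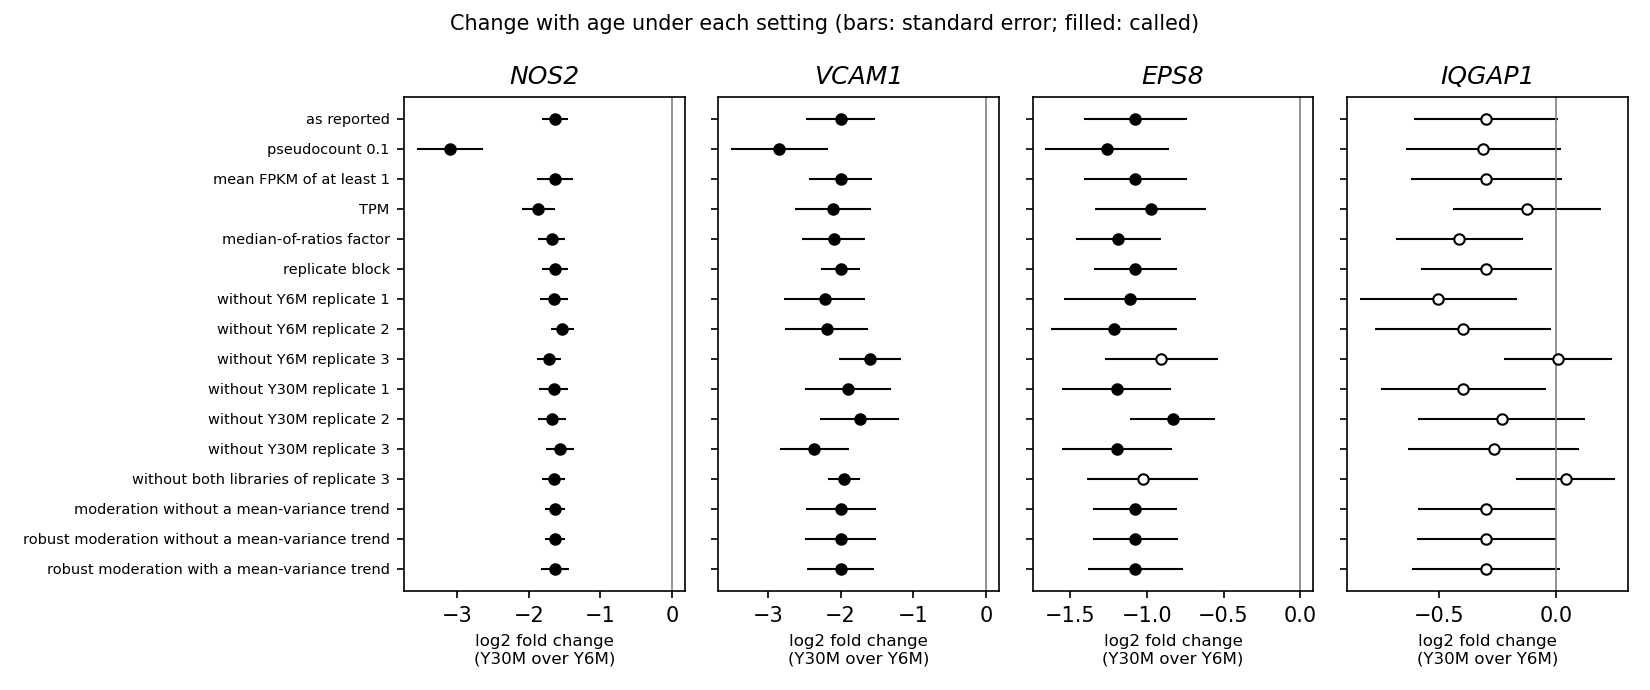
Log2 fold change (horizontal axis, Y30M over Y6M, a scale for each gene) of the 4 genes under each processing setting (vertical axis) with its standard error. Filled points met the study's thresholds. *NOS2* and *VCAM1* are filled in every row, and *EPS8* is open in the rows without Y6M replicate 3 and without both libraries of replicate 3. *IQGAP1* is open in every row, and its point lies to the right of 0 only in those same rows. Its standard error bar also reaches 0 in other rows, among them the row as reported.

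The replicate 3 libraries of both ages stood apart from the others on the second principal component of log2(FPKM + 1), at -43.0 and -52.5 against 13.0 to 36.2, a component with 7.38% of the variance. Over the 13912 genes that averaged 1 FPKM or more, replicate 3 was 0.735 to 1.56 times the mean of the other two libraries between the quartiles in Y6M and 0.728 to 1.59 times in Y30M. The *VCAM1* values lay above both ranges, the Y30M value of *NOS2* (0.462 times) lay below, and *IQGAP1* lay above in Y6M (1.94 times) and within in Y30M (0.925 times). The part of this difference between libraries in the results of the 4 genes was not tested beyond the fits without it.

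Marker genes of other cell types moved with age beside these genes. Of all genes tested 19.0% were called lower and 27.6% higher, and of the 2130 with a symbol 26.2% and 33.1%. Names were paired with only some marker identifiers, 2 of 13 for Sertoli cells, 1 of 8 for Leydig cells, 3 of 8 for endothelium and 3 of 12 for spermatocytes and spermatids, and with none for peritubular cells, leukocytes or spermatogonia. The Sertoli markers *SOX9* and *FSHR* were both called lower, with a sum of 65.7 to 93.2 FPKM at 6 months and 19.5 to 35.4 FPKM at 30 months. *SOX9* alone, a Sertoli transcription factor, fell 1.90-fold by mean FPKM and *FSHR*, the receptor for follicle-stimulating hormone, fell 5.75-fold. The call of *SOX9* was lost at a 2-fold threshold and without both libraries of replicate 3. Of the endothelial markers *PECAM1*, *CDH5* and *TEK*, 3 of 3 were called lower, and their summed FPKM was 17.4 to 25.8 at 6 months and 5.16 to 8.13 at 30 months, but *TEK* missed a 2-fold threshold (log2 fold change -0.81). The Leydig marker *LHCGR*, the receptor for luteinizing hormone, fell from 34.4 to 67.3 FPKM in Y6M to 1.44 to 5.37 FPKM in Y30M, where replicate 3 was the highest. The spermatocyte and spermatid markers summed to 8.92 to 28.0 FPKM in Y6M and 73.5 to 246 FPKM in Y30M. Most of this was *SPATA18*, without which the sums were 8.47 to 28.0 FPKM and 13.2 to 68.0 FPKM and overlapped. Of the 3 genes, *SYCP3* and *SPATA18* were called higher and *HORMAD1* was not called. *TEK*, *SYCP3* and *SPATA18* stand in the study's table of genes that differ in expression, and *TEK* and *SYCP3* also in its lists of the peaks of an age. *SOX9*, *FSHR*, *LHCGR*, *PECAM1* and *CDH5* were named through its table of peaks that differ with age. The study also listed *FSHR* among genes that change with age in these samples. None of these named markers was at 0 in any library, and their part in the lower *NOS2*, *VCAM1* and *EPS8* values was not tested.

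The other genes of each pathway were taken from lists, and a name was paired with 21 of their 108 symbols. Most of these names came from the study's table of peaks that differ with age. In its table of genes that differ in expression stand 6, most of them in a table of peaks as well. The named genes are thus no random subset. Of the 21, 4 were called lower and 7 higher, with a median log2 fold change of 0.12, where 19.0% of all genes tested were called lower and 27.6% higher with a median of 0.04. Of the 2130 genes tested that have a symbol, 26.2% were called lower and 33.1% higher, with a median of 0.06.

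In the nitric oxide list (5 of 22 symbols named), 4 genes were called higher, none lower and 1 not called, while *NOS2* was called lower. Of the genes tested with a symbol, 33.1% were called higher and 26.2% lower. The 5 are no random subset of the list, so they do not give it a direction. *NOS1*, which encodes the neuronal nitric oxide synthase, was measured at 0.164, 0.0698 and 0.0768 FPKM in the Y6M libraries and at 2.81, 5.76 and 2.24 FPKM in the Y30M libraries. Its groups did not overlap, and its mean was 34.8-fold higher in Y30M (in limma a log2 fold change of 1.99 ± 0.29, adjusted p = 0.00126, and 4.10 with a pseudocount of 0.1). The NOS family members with a name thus moved in opposite directions with age, also as TPM and with a median-of-ratios factor for each library. At 6 months *NOS2* exceeded *NOS1* in every library, and at 30 months *NOS1* exceeded *NOS2* in every library. *NOS3*, the endothelial synthase, was not matched to an identifier.

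*DDAH1*, whose product breaks down endogenous inhibitors of nitric oxide synthase, rose 9.65-fold by mean FPKM (log2 fold change 2.95), or 15.1-fold without Y6M replicate 3, and it was named through the table of expression changes. *GUCY1B1*, the beta subunit of the nitric oxide receptor guanylate cyclase, rose 2.30-fold, while its partner subunit *GUCY1A1* had a log2 fold change of -0.17 and was not called. *NOSIP*, whose product binds nitric oxide synthases, had a log2 fold change of 0.83, and its call was lost with a median-of-ratios factor (0.71) and in 4 of the 6 fits that left out 1 library.

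**Figure D3:**
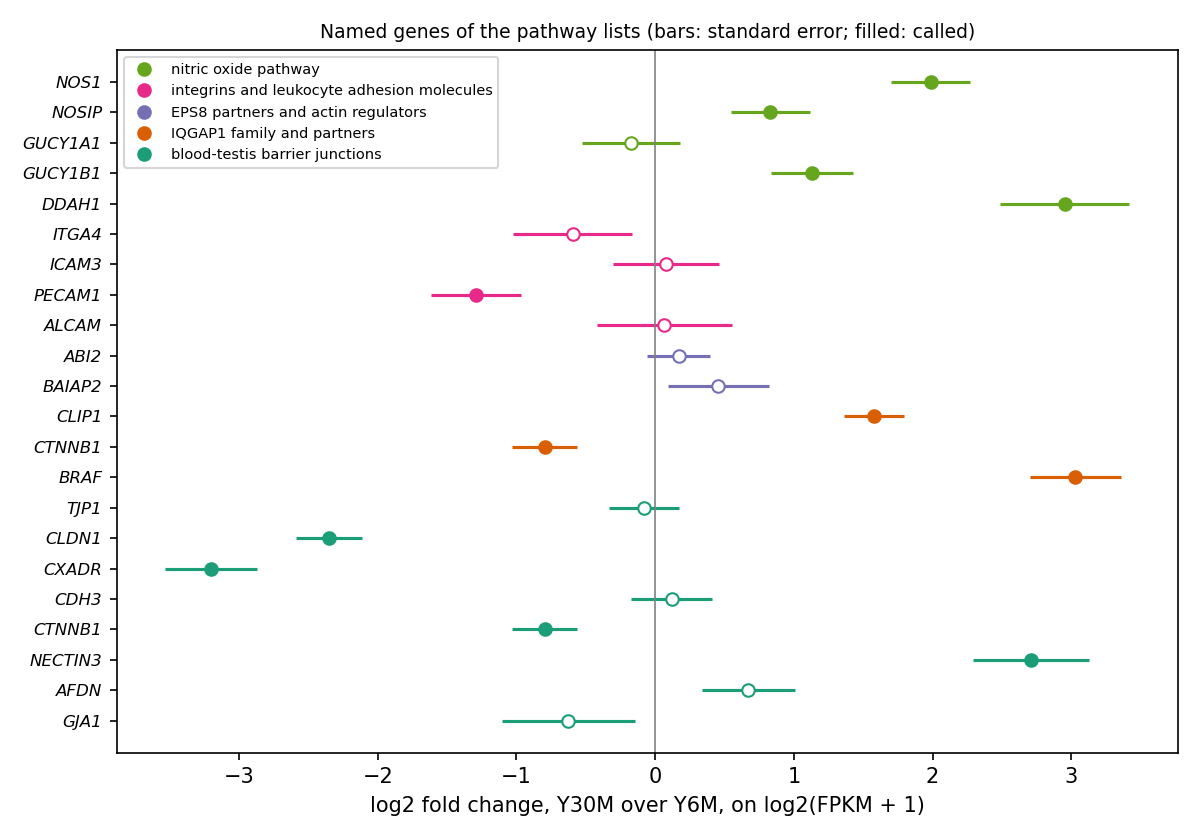
Log2 fold change, Y30M over Y6M, on log2(FPKM + 1) (horizontal axis) of the named genes of the pathway lists (vertical axis, coloured by list, *CTNNB1* shown in both of its lists) with standard errors. Filled points met the thresholds. The nitric oxide genes *NOS1*, *GUCY1B1*, *DDAH1* and *NOSIP* lie to the right of 0, and *CXADR* and *CLDN1* lie farthest to the left.

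For *VCAM1*, the list of integrins and leukocyte adhesion molecules held 4 named genes of 16. Of these 1 was called lower, against 26.2% of all genes tested with a symbol. *PECAM1*, an adhesion molecule of endothelium and leukocytes, fell 3.10-fold by mean FPKM (log2 fold change -1.29). *ITGA4*, the alpha chain of the integrin that binds VCAM1, was measured at 5.52, 4.68 and 11.8 FPKM in the Y6M libraries and at 3.66, 2.88 and 6.64 FPKM in the Y30M libraries. Its ages overlapped and it was not called (log2 fold change -0.59 ± 0.43), although it stands in the table of expression changes as well as in that of differing peaks. In both ages its highest library was replicate 3, as for *VCAM1*. The log2 fold changes of *ICAM3* and *ALCAM* were 0.08 and 0.07.

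For *EPS8*, the list of partners and actin regulators held 2 named genes of 24, and neither was called. *ABI2*, an adaptor of Rac signalling to actin, had 22.4 FPKM in Y6M and a log2 fold change of 0.17, and *BAIAP2*, which binds EPS8 at actin protrusions, had a log2 fold change of 0.46. The EPS8-like family members had no name here.

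For *IQGAP1*, 3 of 18 symbols were named and all 3 were called, 2 higher and 1 lower, beside an *IQGAP1* level that was not called. With 33.1% of genes with a symbol called higher and 26.2% lower, 3 named genes do not set this list apart. *CLIP1*, a microtubule plus-end protein that IQGAP1 binds, rose from 7.27, 8.38 and 9.67 FPKM to 23.98, 29.8 and 27.7 FPKM, 3.22-fold in the mean (log2 fold change 1.58). *BRAF*, a kinase of the MAPK pathway, rose 9.20-fold. It stands in the table of expression changes and also in the lists of the peaks of each age. *CTNNB1*, which encodes beta-catenin at cadherin junctions, fell 1.71-fold (log2 fold change -0.80), and its call was lost without Y30M replicate 2 (-0.57). *IQGAP2* and *IQGAP3* had no name here.

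Of the barrier junction genes, 8 of 35 symbols were named, with 3 called lower, 1 higher and 4 not called. Among all genes tested with a symbol, 26.2% were called lower and 33.1% higher, and 8 named genes are too few to set the list apart from these shares. *CXADR*, the coxsackievirus and adenovirus receptor, an immunoglobulin-like protein of tight junctions, was measured at 22.9, 18.1 and 36.4 FPKM in the juvenile libraries and at 2.13, 1.36 and 1.96 FPKM in the mature ones, 14.2-fold lower in the mean. *CLDN1*, a claudin of tight junction strands, fell 23.5-fold (log2 fold change -2.35), or 41.4-fold without Y30M replicate 3, and the third gene called lower was *CTNNB1*. *NECTIN3*, a nectin of the contact between Sertoli cells and spermatids, rose 7.26-fold. *CXADR*, *CLDN1* and *NECTIN3* all stand in the table of expression changes, and each is also named in a list of the peaks of an age. The tight junction scaffold *TJP1* (log2 fold change -0.08), the cadherin *CDH3* (0.12), the nectin adaptor *AFDN* (0.67) and the gap junction connexin *GJA1* (-0.63) were not called. *AFDN* was called in 4 alternatives, as TPM (0.86), with a replicate block (adjusted p = 0.0564 in limma), without Y30M replicate 3 (0.99) and without both libraries of replicate 3 (0.90).

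By pattern over the 6 libraries, 1988 named genes that averaged 1 FPKM or more were ranked by their Pearson correlation with each of the 4 genes on log2(FPKM + 1). These values describe 6 libraries split by age, and r was above 0.95 for 140 genes with *NOS2*, 109 with *VCAM1*, 145 with *EPS8* and 3 with *IQGAP1*, so the leading genes of the first 3 are barely set apart. Most like *NOS2* were *OLFM2*, *USP43* and *SOD3* (r = 0.994, 0.994 and 0.994), and most like *VCAM1* were *STON1*, *TRAF3IP3* and *ARHGDIB* (r = 0.995, 0.994 and 0.993). For *EPS8* they were *SLC25A36*, *FNBP4* and *STAT3* (r = 0.998, 0.993 and 0.991), and for *IQGAP1* they were *HIVEP2*, *MATN2* and *STK4* (r = 0.990, 0.963 and 0.957). The genes most like *VCAM1* shared its high replicate 3, as *STON1* did with 4.90, 5.15 and 11.8 FPKM at 6 months and 0.892, 0.902 and 2.23 FPKM at 30 months. Among the 4 genes, *VCAM1* and *EPS8* had r = 0.949, *NOS2* had r = 0.803 with *VCAM1* and 0.802 with *EPS8*, and *IQGAP1* had r between 0.337 and 0.661 with the others.

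All 4 genes carried m6A peaks, but this followed from how they were chosen. The study listed *NOS2*, *VCAM1* and *EPS8* for changes in both m6A and expression, and *IQGAP1* was chosen for its peak. Peaks were called on 8809 genes, and the expression table holds 20953. The peaks were called by the authors over both ages with the input as control, and each is given with its exon blocks, its fold enrichment over input and the false discovery rate (FDR) of that enrichment. Neither value is separate for each age, so they do not say at which age a transcript was methylated. Of the 13 peaks, 9 had an enrichment FDR of at most 0.05, against 69.0% of all peaks. The median enrichment over all peaks was 2.31, with quartiles of 1.78 and 3. Of the 13 peaks, 12 joined more than 1 exon block, against 52.4% of all peaks. Coordinates are 1-based on LU_Bosgru_v3.0. No annotation of this build was used here, so coding exons and untranslated regions are not told apart.

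*NOS2* had 1 peak, as had 52.6% of the 8809 genes with a peak. It spanned chr19:49714496-49720399 on the plus strand in 3 exon blocks of 30, 163 and 8 bases. Its enrichment was 1.68 (FDR 7.76e-08), lower than most peaks, with 19.4% of all peaks below it.

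*VCAM1* had 3 peaks on the plus strand of chromosome 3, and these were the most enriched of the 13. They were enriched 3.23-fold at chr3:28950882-28954566, 3.36-fold at chr3:28973464-28994351 and 3.43-fold at chr3:28996951-28999908. All 3 stood above at least 81.1% of all peaks in enrichment, yet each had an FDR of 0.0617, so none passed 0.05. Their exon blocks held 600, 200 and 350 bases.

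The outer 2 of these peaks held exon blocks with the same layout. The last block of the first peak (chr3:28954252-28954566, 315 bases) and the first block of the last peak (chr3:28996951-28997271, 321 bases) start 42699 bases apart. At exactly this shift, 6 of 6 scored adenosines of the first block met a scored adenosine of the second, which has 6, with scores no more than 0.133 apart. Of the other 66 scored adenosines of the first peak, 0 met one. This comparison was made after the positions were seen. Whether reads were shared between these stretches was not tested, since no sequence of this build was used here, and the *VCAM1* FPKM, peaks and site counts are uncertain to that extent.

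*EPS8* had 2 peaks on the minus strand of chromosome 5, and they differed most in enrichment within a gene. The 5′ peak (chr5:8127710-8130594, blocks of 48, 68 and 83 bases) was enriched 2.94-fold (FDR 1.05e-07). The 3′ peak (chr5:8115969-8120987, blocks of 86, 74 and 89 bases) was enriched only 1.28-fold, with 2.20% of all peaks below it, at an FDR of 2.63e-08. Thus the peak with the lowest enrichment of all 13 had the lowest FDR, and the most enriched peaks, those of *VCAM1*, did not pass.

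*IQGAP1* had 7 peaks on the minus strand of chromosome 17, and 0.851% of genes with a peak carried as many or more. The gene was chosen for its peak, so this share is a description and no test. Its peaks extended over 112 kb, with 2093 exon bases in all. From the 5′ end the fold enrichment was 1.46, 1.53, 1.30, 1.80, 2.23, 1.52 and 2.25, all below the median of all peaks. The highest was in the 3′-most peak (chr17:22848789-22858411, FDR 6.17e-06), which had 5 exon blocks and 846 exon bases. The next was the fifth (chr17:22874281-22874917, FDR 5.01e-04). The second peak (chr17:22894258-22897331) had an FDR of 1, as had 27.8% of all peaks. The sixth, a single exon block of 150 bases (chr17:22868919-22869068), had an FDR of 0.0110.

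**Figure D4:**
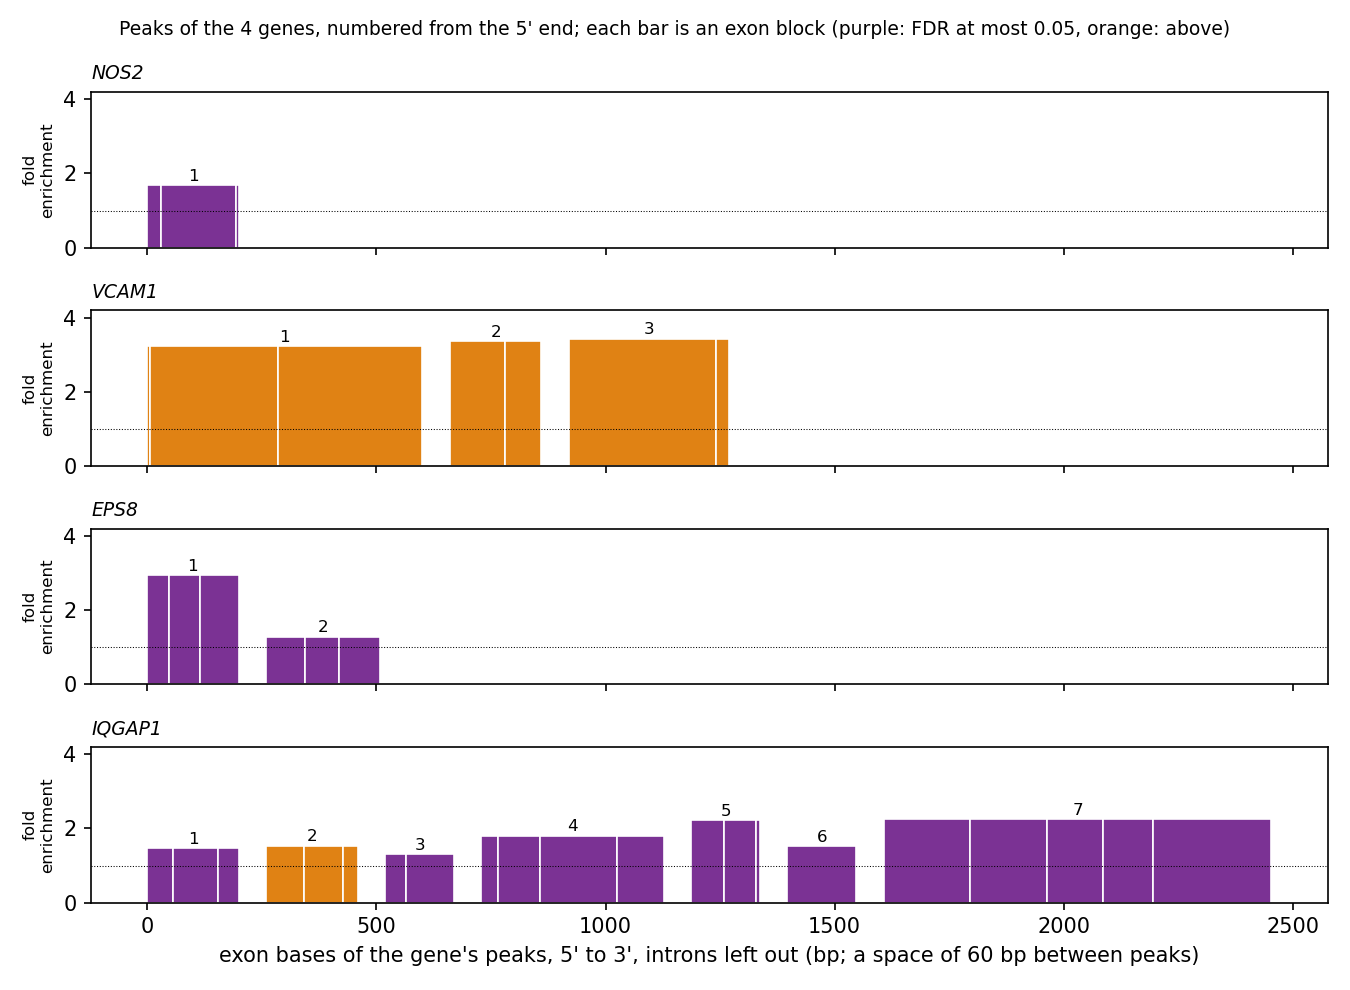
Fold enrichment over input (vertical axis) of the peaks of the 4 genes, with the exon bases of each peak laid end to end from 5′ to 3′ and introns left out (horizontal axis, in bp, with 60 bp between peaks). White lines part exon blocks, purple peaks have an FDR of at most 0.05 and orange peaks do not, and the dotted line marks an enrichment of 1. The *VCAM1* peaks are the tallest and all orange, and 6 of the 7 *IQGAP1* peaks are purple and low.

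A separate list gave peaks of the Y6M testis with a score for adenosines along each, and marked those above a set score as predicted m6A sites. The corresponding Y30M list was not analysed here for these genes. Of the 13 peaks, 12 overlapped a Y6M peak by at least 1 base, against 75.4% of all peaks, and the exception was the weakly enriched 3′ peak of *EPS8*. At an overlap of at least 50% of both spans 9 of 13 did, against 59.6% of all peaks. The Y6M peak of *EPS8* (chr5:8127710-8142513) was longer than the peak called over both ages, and 1 Y6M peak of *IQGAP1* (chr17:22879355-22897381) covered 3 of its peaks, from the second on.

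Predicted sites made up 22 of 105 scored adenosines (21.0%, exact 95% binomial interval 13.6 to 30.0) in *NOS2*, 151 of 657 (23.0%, 19.8 to 26.4) in *VCAM1*, 46 of 356 (12.9%, 9.62 to 16.9) in *EPS8* and 420 of 1652 (25.4%, 23.3 to 27.6) in *IQGAP1*. The intervals cover counting error only, and neighbouring adenosines share sequence. Over all Y6M peaks the share was 21.5%. The *EPS8* interval lay below this share and the *IQGAP1* interval above it. Taken 1 by 1, only the 3′-most Y6M peak of *IQGAP1* had an interval above it (79 of 226, 35.0%, 28.8 to 41.6). The intervals of its other Y6M peaks included 21.5%.

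Most scored adenosines lay outside the exon blocks of the peaks called over both ages. Only 4.76% of those of *NOS2*, 3.96% of *VCAM1*, 0.843% of *EPS8* and 1.69% of *IQGAP1* lay in such a block, against 4.43% over all Y6M peaks. A Y6M peak can reach beyond the peaks called over both ages or overlap none, so outside a block is not always between blocks. In *EPS8* only 70 of the 356 lay within the span of a peak called over both ages. In the exon blocks of *VCAM1* 14 of 26 were predicted sites (53.8%, exact 95% interval 33.4 to 73.4), and outside them 137 of 631 (21.7%, 18.6 to 25.1). The 2 intervals did not overlap, nor with the block of like layout counted once (11 of 20, 55.0%, 31.5 to 76.9). In *IQGAP1* the values were 11 of 28 (39.3%, 21.5 to 59.4) and 409 of 1624 (25.2%, 23.1 to 27.4), and the intervals overlapped. *NOS2* had 2 of 5 in exon blocks and *EPS8* 0 of 3 (0%, exact 95% interval 0 to 70.8), too few for a comparison. Over all Y6M peaks 41.0% of adenosines in exon blocks and 20.6% of those outside were predicted sites.

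**Figure D5:**
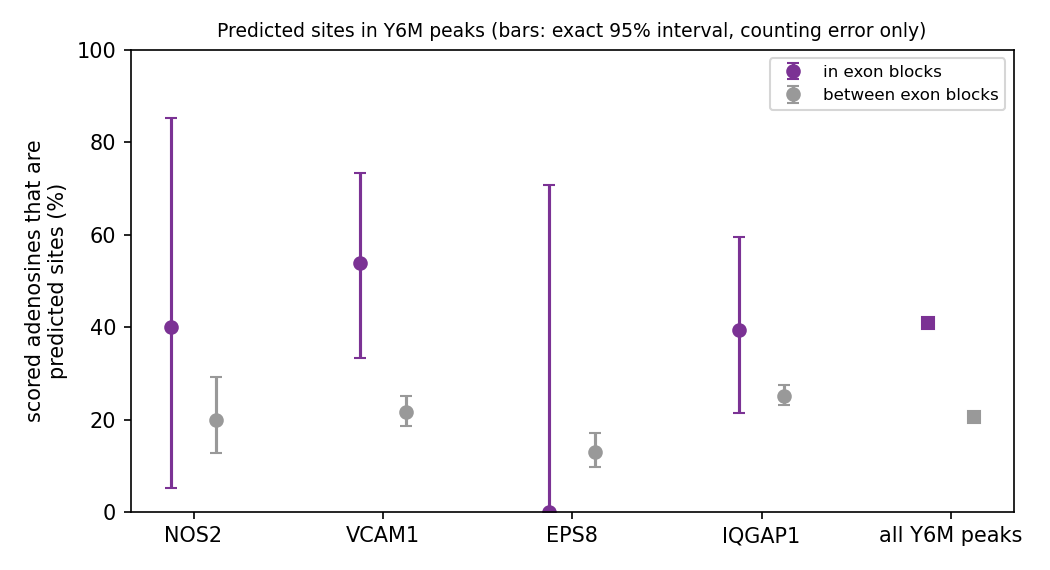
Share of scored adenosines marked as predicted sites (vertical axis, in percent) for the Y6M peaks of each gene and of all genes (horizontal axis). Purple marks the exon blocks of the peaks called over both ages. Grey, labelled as between exon blocks, marks all scored adenosines outside them. Bars are exact 95% binomial intervals for the 4 genes, for counting error only. In *VCAM1* the exon blocks stand above the rest, at 53.8% against 21.7%.

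The highest scores within exon blocks were in *VCAM1*, at 0.760 at position 28997098, 0.741 at 28954399 and 0.733 at 28954559 of chromosome 3, each in the class of very high confidence (at least 0.672). The first 2 of these are the same base of the blocks with like layout, and may be 1 site counted in both. In *IQGAP1* the highest was 0.651, at position 22851488 of chromosome 17 in the 3′-most peak, in the high class (at least 0.6). *NOS2* had 0.546 and 0.540 for its 2 sites, at positions 49719283 and 49719332 of chromosome 19 in the block of 163 bases, both of low confidence. In *EPS8* the highest exon score of 0.445 was below that of a predicted site.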

How the data were processed

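Expression was taken from FPKM values of the 6 input libraries, which the authors deposited after trimming with Trimmomatic, removal of ribosomal reads and alignment with HISAT2 to LU_Bosgru_v3.0. Their sums were 587932 to 702778 and 16947 to 18052 genes were above 0. No counts were used, and the sequencing yield that the study reported was not used here either. Depth is thus given only as the relative depth that low FPKM values give, 0.752 to 1.07 with Y30M replicate 1 as 1. m6A peaks were called with MeTDiff by the authors over both ages, and the deposited table gives the fold enrichment (a ratio to input), log10 FDR and exon blocks of each. Its columns of differences between ages, and their p-values and FDR, were not used. The deposited Y6M list gives a score for each adenosine, from a predictor not given in the sources used here. Groups are those of the sample titles.

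Values of log2(FPKM + 1) were fitted with limma 3.58.1 (R 4.3.3) without covariates, leaving out genes at 0 in every library, so that 19477 were tested, and the script was tested on simulated data. Calls needed an unadjusted limma p-value no higher than 0.05 with a change of 1.5-fold or more. Moderation was fitted in 4 forms (with or without a mean-variance trend, robust or not). The form with a trend was kept because its count of calls equals that of an earlier processing of these files, and the other 3 are given among the alternatives. The libraries of each age came from 3 different yaks. Deviations from the group means correlated between libraries of the same number (0.209, 0.283 and 0.604), but replicates 1 and 2 did so across numbers too (0.322 and 0.253). A fit with a replicate block was made on this hint from the data, since the labels do not say what libraries of a number share. Gene names came from the supplementary tables, which pair 2132 identifiers with 1 symbol, and 23 ambiguous pairs were left out. A gene of the junction list is not reported here and is in none of the list counts. The genes, lists and tests were chosen with earlier results of these data known. Named were the 4 genes, their family members, up to 2 called genes in each direction for each list with the largest change, every gene of a count of 5 or fewer, and for each of the 4 genes the 3 genes with the most similar pattern. Intervals are exact binomial (scipy 1.17.1). Alternatives were another pseudocount (0.1), a minimum mean FPKM of 1, TPM, a median-of-ratios factor, the replicate block, leaving out libraries, a fold change of 2, an adjusted p of 0.05, an enrichment FDR of 0.01, an overlap of 50% and a score of 0.6.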

Additional observations from a re-analysis of the deposited data

How the results depend on the processing

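Over 17 alternatives *NOS2* and *VCAM1* were called lower in all, *EPS8* in 15 and *IQGAP1* in none. In the fits without 1 library each, the log2 fold change was -1.72 to -1.53 for *NOS2*, -2.36 to -1.59 for *VCAM1* (adjusted p 0.0153 to 0.0575), -1.21 to -0.83 for *EPS8* (adjusted p 0.0499 to 0.108) and -0.50 to 0.0084 for *IQGAP1*, positive only without Y6M replicate 3. Without both libraries of replicate 3, chosen after seeing the data, *EPS8* was at -1.03 and no longer called, and *IQGAP1* was at 0.041. With the replicate block *EPS8* kept its call (adjusted p = 0.0174 in limma) and 9909 genes were called against 9080, and the block changed no other call among the genes named than that of *AFDN*. The other 3 forms of moderation, also run after seeing the data, called 8904 to 9149 genes and changed no call of the 4 genes. Genes of the pathway lists called lower numbered 3 in place of 4 at a fold change of 2, and 3 to 4 (6 to 8 called higher) without 1 library each. TPM moved the log2 fold change of the median gene by 0.17 and raised the share of higher among called genes from 59.2% to 65.0%, and a median-of-ratios factor gave 54.4%. Values of genes not called changed sign as TPM for *TJP1* (0.10) and *MATN2* (0.0085), with a median-of-ratios factor for *ICAM3* (-0.023) and *ALCAM* (-0.022), and without both libraries of replicate 3 for *GUCY1A1* (0.33), *CDH3* (-0.0055), *HORMAD1* (-0.10), *HIVEP2* (0.045) and *MATN2* (0.12). Without 1 library each, or both of replicate 3, genes not called ranged across 0, with -0.35 to 0.33 for *GUCY1A1*, -0.25 to 0.51 for *ICAM3*, -0.34 to 0.46 for *ALCAM*, -0.26 to 0.16 for *TJP1*, -0.078 to 0.27 for *CDH3*, -0.53 to 0.67 for *HORMAD1*, -0.35 to 0.045 for *HIVEP2* and -0.33 to 0.15 for *MATN2*. At a score of at least 0.6 the share of predicted sites was 10.5% in *NOS2*, 11.1% in *VCAM1*, 6.18% in *EPS8* and 10.7% in *IQGAP1*, against 9.27% over all Y6M peaks, and at an enrichment FDR of 0.01 8 of the 13 peaks passed, against 66.9% of all peaks. With 3 yaks for each age and no counts, the precision of the low *NOS2* and *VCAM1* values in Y30M is not known, and the cause of the changes above was not tested.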

Other observations

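A Y6M peak at chr5:8063163-8072238, on the 3′ side of the *EPS8* peaks, held 219 scored adenosines of which 73 were marked as predicted sites. It overlapped no peak called over both ages, and the files used here give it no gene.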
